A study of Mus musculus with 7 samples.

Results

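The genes described here encode 9 transcription factors that mark the hepatocyte lineage, Hnf4a, Foxa1, Foxa2, Foxa3, Cebpa, Prox1, Hhex, Nr5a2 and Onecut2. They were a fixed list of symbols, looked up by name in the authors' deposited table and joined by gene identifier to the read counts. All 9 were found among the 38924 genes counted, and all 9 were among the 16226 genes with enough reads to be tested. Their levels were compared between 3 Pcbp2 knockout and 4 wild-type libraries of polyadenylated RNA. All came from the fetal liver of mouse embryos taken 12.5 days post coitum. Pcbp2 encodes a poly(C)-binding protein that regulates the stability, translation and splicing of RNA. The labels call the knockout samples PCBP2_KO 3, 4 and 5 and the wild-type samples WT 1, 2, 3 and 4. They give no allele, Cre driver, strain, sex, litter or batch, and do not say whether a library came from 1 embryo or several, so p-values measure only the spread between these libraries.

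In the embryonic liver, hepatoblasts grow out of the foregut endoderm and later become hepatocytes or bile duct cells, while blood cells colonise the organ around them. FOXA1 and FOXA2 open chromatin at liver genes before the bud forms, HHEX and PROX1 are needed for the hepatoblasts to leave the endoderm and spread, and HNF4A, C/EBPalpha, NR5A2, FOXA3 and the ONECUT factors then drive hepatocyte genes. These factors are known to regulate one another's genes as well as their targets, and they are widely used as markers of hepatoblast identity.

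Because the factors bind each other's genes, their promoters were searched for the binding motifs of the group. Windows of 300 bases, from 250 before to 50 after each RefSeq start site on GRCm38.p6, were used for 8 of the 9 genes and gave 13 windows. The motifs, read on both strands, were TGTTTAC or TGTTTGC for the FOXA factors, ATTGAT for ONECUT, GTTAAT as the core of HNF1, TTGCNNAA for C/EBP, CAAAGTCCA for HNF4 and CAAGGTCA for NR5A. At least 1 motif lay in 8 of the 13 windows, from 5 of the genes, and none overlapped another motif. The 6 stretches below were picked from the matches for display, and not every match is shown. Each holds the motif of a liver factor before a RefSeq start site of one of the 9 genes. Some of these start sites lie inside the annotated span of the gene. The motif, or its reverse complement, is in capitals, with up to 30 bases on each side, and each is read along the strand of its gene.
Hnf4a upstream start, ONECUT core, chr2:163506768-163506833, plus strand: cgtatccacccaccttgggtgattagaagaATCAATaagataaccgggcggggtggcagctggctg
Hnf4a downstream start, HNF1 core, chr2:163547044-163547109, plus strand: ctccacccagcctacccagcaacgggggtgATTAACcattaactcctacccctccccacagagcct
Foxa2, ONECUT core, chr2:148047147-148047212, minus strand: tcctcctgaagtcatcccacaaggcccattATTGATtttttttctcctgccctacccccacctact
Foxa1, FOX core, chr12:57546216-57546282, minus strand: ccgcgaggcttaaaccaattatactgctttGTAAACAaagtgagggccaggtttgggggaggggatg
Prox1, FOX core, chr1:190169599-190169665, minus strand: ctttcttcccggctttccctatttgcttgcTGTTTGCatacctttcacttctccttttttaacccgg
Nr5a2, C/EBP site, chr1:136953836-136953880, minus strand: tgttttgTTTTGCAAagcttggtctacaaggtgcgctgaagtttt

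The downstream Hnf4a start held a second HNF1 core a few bases on. The FOX core was in 2 of the 13 windows, against 8.48% of the 32851 windows of all genes, and the ONECUT core in 2, against 7.54%. An HNF1 core was in 3 of the 13, against 7.10%, and a C/EBP site in 1, against 10.8%. The HNF4 and NR5A motifs were in 0 of the 13 and in 0.475% and 1.56% of all windows. A match describes letters only and a missing match says nothing about the factor. Counts per gene pool every start site, so use of the upstream and downstream starts of Hnf4a was not measured.

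The knockout was visible in its own gene. Pcbp2 had 2.24, 1.39 and 2.22 CPM (read counts scaled to a common library size) in knockout libraries 3, 4 and 5, against 165, 329, 347 and 338 CPM in wild-type libraries 1 to 4. These CPM values were scaled by TMM, a factor per library that is set so that most genes do not differ. Its knockout over wild-type log2 ratio was -7.26 ± 0.34 (SE; edgeR adjusted p = 1.29e-05), and wild-type library 1 stood below the other wild-type libraries. Reads in genes ranged from 31898339 to 42378821 in the knockout and from 32240949 to 44544889 in the wild type, which puts 3 reads, the floor for a gene with no reads, at 0.0662 to 0.102 CPM. The markers of other cells moved with genotype. Of 10 erythroid genes 6 fell, and their summed level was 3917 to 6817 CPM in knockout and 20234 to 46214 CPM in wild-type libraries. Of 8 macrophage and granulocyte genes 3 fell (sum 168 to 270 CPM in knockout, 256 to 303 CPM in wild-type libraries), and of 10 endothelial genes 3 rose (sum 302 to 384 CPM in knockout, 220 to 292 CPM in wild-type libraries). With 1 library left out in turn, 3 to 9 erythroid and 0 to 3 myeloid genes fell and 1 to 4 endothelial genes rose, each count lowest without knockout library 5. Under scaling by hepatoblast markers, introduced further on, 5 erythroid and 1 myeloid gene fell and 0 endothelial genes rose. Over all tested genes, 285 passed under that scaling, against 814 under TMM. The median log2 fold changes there were -1.09 (erythroid), -0.54 (myeloid) and 0.48 (endothelial), against -1.18, -0.54 and 0.47 under TMM. In whole liver, fewer cells of a type and less RNA per cell cannot be told apart, and the part of these shifts in the results that follow was not tested.

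No change of a hepatocyte factor was resolved in livers without Pcbp2 in the main comparison, which had no covariates. None of the 9 passed edgeR's quasi-likelihood test at an adjusted p of 0.05, and the groups overlapped for all 9. Over all genes tested, 814 passed, or 5.02%, of which 258 (1.59%) were higher and 556 (3.43%) were lower in the knockout; scaled by total counts, 651 were higher and 393 lower. Values of 6 genes were higher and of 3 lower on average in the knockout, with log2 fold changes between -0.34 and 0.47. The median over the 9 was 0.20, and the median of all tested genes was 0.01. Their median absolute log2 fold change was 0.25, against 0.19 over all tested genes. The 95% intervals of all 9 lay within 2-fold in either direction, and their standard errors were 0.15 to 0.26, so smaller differences could not be resolved. At an unadjusted p of 0.05 edgeR marked 1 of 9, Cebpa, which is below the 21.8% of all genes so marked. Groups that did not overlap were found for 20.6% of all genes. With limma-voom 0 of the 9 passed and 0 had an unadjusted p under 0.05, and with DESeq2 0 passed and 1 had. With replicate number added to edgeR as a block, 1 passed, Prox1 (edgeR adjusted p = 0.0416), and 4 had an unadjusted p under 0.05. The labels do not say that a number pairs samples. The median over the 9 was 0.02 without knockout library 3 and 0.06 without wild-type library 2. Positions are on GRCm38, the build mm10.

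**Figure D1:**
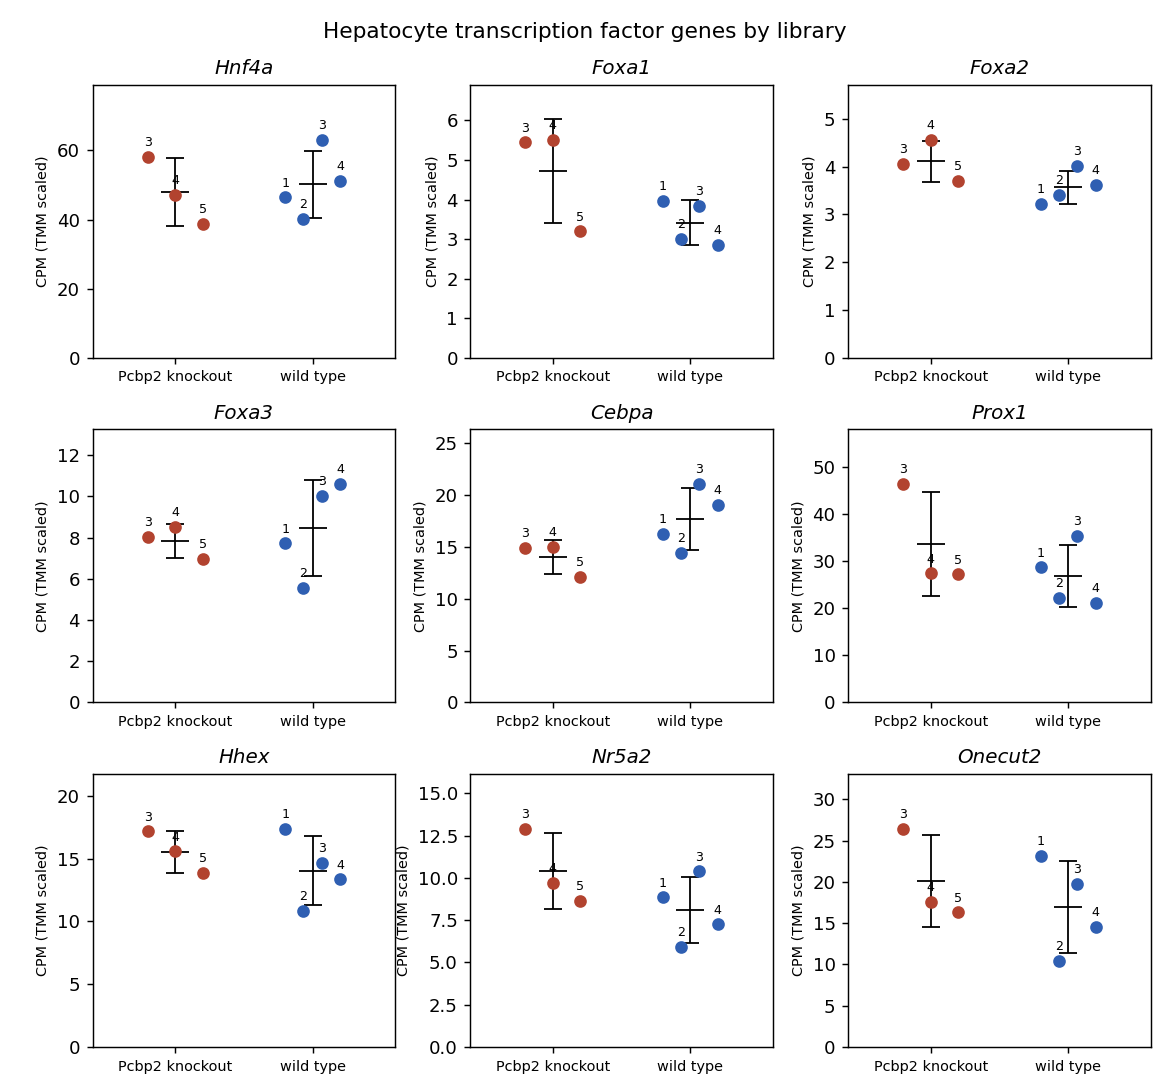
Level of each of the 9 genes in every library, in TMM-scaled CPM on a linear axis that starts at 0, with knockout libraries in red on the left and wild-type libraries in blue on the right. Numbers name the library, and the bars show mean and SD (n = 3 and 4); in each panel the groups overlap.

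Hnf4a (ENSMUSG00000017950.10, chr2:163506808-163572910, plus strand) encodes the nuclear receptor that controls many hepatocyte genes and was the most abundant of the group. It had 58.1, 47.2 and 38.7 CPM in knockout libraries 3, 4 and 5, against 46.4, 40.1, 63.1 and 51.2 CPM in wild-type libraries 1 to 4. The means were 48.0 ± 9.75 CPM in the knockout and 50.2 ± 9.75 CPM in the wild type (SD, n = 3 and 4). The 2 groups covered almost the same range, each with 1 library near 60. On the log2 scale the difference was -0.06 ± 0.17 (SE; 95% interval -0.45 to 0.32; edgeR adjusted p = 0.862). Its sign was not stable, at 0.062 under scaling by total counts, 0.0635 without wild-type library 3 and 0.0701 without knockout library 5. A long antisense gene, Hnf4aos, overlaps Hnf4a over 34913 bases and had 0 or 1 read in every library.

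The 3 FOXA genes encode forkhead proteins that bind closed chromatin. Foxa1 (ENSMUSG00000035451.6, chr12:57540628-57546916, minus strand) had 5.44, 5.52 and 3.19 CPM in the knockout libraries and 3.96, 3.00, 3.83 and 2.85 CPM in the wild-type libraries. Knockout libraries 3 and 4 stood above all wild-type libraries, while knockout library 5 lay among them. Its log2 fold change was the highest of the group, 0.47 ± 0.23 (SE; 95% interval -0.05 to 0.99; edgeR adjusted p = 0.272). Foxa2 (ENSMUSG00000037025.5, chr2:148042877-148046969, minus strand), needed with Foxa1 for the liver bud, had 4.05, 4.57 and 3.71 CPM in knockout and 3.22, 3.42, 4.02 and 3.61 CPM in wild-type libraries. Its libraries were the tightest of the group, with 4.11 ± 0.433 CPM in the knockout and 3.57 ± 0.344 CPM in the wild type, and its log2 difference was 0.20 ± 0.18 (SE; edgeR adjusted p = 0.541). Foxa3 (ENSMUSG00000040891.5, chr7:19013284-19023538, minus strand), the form that predominates in the mature liver, had 8.01, 8.54 and 6.96 CPM in knockout and 7.72, 5.54, 10.02 and 10.6 CPM in wild-type libraries. All 3 knockout values lay inside the wild-type range. The log2 fold change of Foxa3 was -0.11 ± 0.21 (SE; edgeR adjusted p = 0.805), but 0.0176 under scaling by total counts and 0.0151 without wild-type library 4. A long noncoding gene close to Foxa2 on its strand, 9030622O22Rik, had 16, 71 and 25 reads in knockout and 22, 16, 25 and 24 reads in wild-type libraries; the highest was knockout library 4, where Foxa2 was highest too.

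Cebpa (ENSMUSG00000034957.9, chr7:35119293-35121928, plus strand) is a gene with 1 exon whose product drives glucose and lipid metabolism in hepatocytes and also the granulocyte and macrophage lineages. It had 14.88, 14.98 and 12.1 CPM in knockout libraries 3, 4 and 5, against 16.2, 14.4, 21.1 and 19.1 CPM in wild-type libraries 1 to 4. Only wild-type library 2 lay within the knockout range. The means were 14.0 ± 1.64 CPM in the knockout and 17.7 ± 2.95 CPM in the wild type (SD, n = 3 and 4). Its log2 fold change was the lowest of the group, -0.34 ± 0.15 (SE; 95% interval -0.68 to -0.0002), with an unadjusted p of 0.0499 and an adjusted p of 0.229 in edgeR. The authors' deposited table gave -0.34, with an unadjusted p of 0.0409 and an adjusted p of 0.195. In the authors' deposited table, of 15548 genes, 10.9% had an adjusted p under 0.05, and 0 of these 9 did. An annotated antisense gene, Gm45091, overlaps Cebpa but was not among the genes counted. Cebpa marks myeloid cells as well as hepatoblasts, and 3 of the 8 myeloid markers fell: Spi1, the master regulator of these lineages, had 7.98, 8.30 and 6.56 CPM in knockout and 13.6, 14.5, 13.1 and 13.9 CPM in wild-type libraries. Its log2 difference was -0.86 ± 0.13 (SE; edgeR adjusted p = 0.00676, but 0.171 under scaling by hepatoblast genes and 0.0518 without knockout library 5). Under the hepatoblast scaling the log2 difference of Spi1 was again -0.86. The contribution of myeloid cells to the Cebpa values was not tested.

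Prox1 (ENSMUSG00000010175.7, chr1:190118035-190170714, minus strand) encodes a homeobox protein that lets hepatoblasts migrate into the surrounding tissue, and it also specifies lymphatic endothelium and acts in heart muscle. It had 46.5, 27.4 and 27.2 CPM in knockout libraries 3, 4 and 5, against 28.7, 22.3, 35.5 and 21.1 CPM in wild-type libraries 1 to 4. Knockout library 3 stood above the other 6 libraries, and the other 2 knockout libraries lay inside the wild-type range. On the log2 scale the difference was 0.33 ± 0.23 (SE; 95% interval -0.18 to 0.83; edgeR adjusted p = 0.443), and 0.02 without knockout library 3. Of 8 heart muscle markers 2 rose in edgeR and 0 in limma-voom. Their summed level was 401, 87.8 and 168 CPM in knockout libraries 3, 4 and 5, and 79.0 to 143 CPM in wild-type libraries, so it too was highest in knockout library 3. The 6 lymphatic markers summed to 360 to 437 CPM in the knockout and 356 to 442 CPM in the wild type, and 0 of the 5 tested passed in edgeR, where 3 had an unadjusted p under 0.05; with DESeq2 2 were higher and 1 lower in the knockout. Whether heart muscle RNA adds to Prox1 in knockout library 3 was not tested. The antisense gene Prox1os had 22, 37 and 12 reads in knockout and 15, 21, 32 and 37 reads in wild-type libraries, and did not peak in knockout library 3.

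Hhex (ENSMUSG00000024986.5, chr19:37434810-37440731, plus strand), a homeobox gene of the liver bud that is also active in early endothelium and blood progenitors, had 17.2, 15.6 and 13.9 CPM in knockout and 17.4, 10.8, 14.7 and 13.3 CPM in wild-type libraries. Every knockout value lay inside the wild-type range, with a log2 difference of 0.15 ± 0.16 (SE; edgeR adjusted p = 0.646). Nr5a2 (ENSMUSG00000026398.8, chr1:136842571-136960448, minus strand) encodes LRH-1, an orphan nuclear receptor of bile acid and cholesterol genes. It had 12.9, 9.69 and 8.61 CPM in the knockout libraries and 8.84, 5.91, 10.4 and 7.25 CPM in the wild-type libraries. Its log2 difference was 0.36 ± 0.21 (SE; 95% interval -0.10 to 0.83; edgeR adjusted p = 0.345), with knockout library 3 highest and wild-type library 2 lowest. Onecut2 (ENSMUSG00000045991.12), a cut homeobox gene that acts with Onecut1 in the choice between hepatocyte and bile duct fate, had 26.5, 17.6 and 16.3 CPM in knockout and 23.2, 10.4, 19.7 and 14.5 CPM in wild-type libraries. It averaged 20.1 ± 5.53 CPM in the knockout and 17.0 ± 5.61 CPM in the wild type, with the widest log2 spread of the 9 over the wild-type libraries (SD 0.51), and its log2 difference was 0.25 ± 0.26 (SE; edgeR adjusted p = 0.624), or 0.00 without knockout library 3.

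Reads were set against exon length to compare levels between genes. In CPM per kilobase of exon, Hnf4a was highest, at 9.94 ± 2.02 in the knockout and 10.4 ± 2.02 in the wild type (SD, n = 3 and 4). Cebpa followed with 5.30 ± 0.622 in the knockout and 6.71 ± 1.12 in the wild type. Hnf4a exceeded Cebpa, and Cebpa exceeded Foxa3, in all 7 libraries. The middle of the order was Foxa3 (3.85 ± 0.395 in knockout, 4.16 ± 1.14 in wild type), Prox1 (4.02 ± 1.32 in knockout, 3.21 ± 0.790 in wild type) and Hhex (3.07 ± 0.328 in knockout, 2.78 ± 0.543 in wild type). The SDs of Prox1 overlapped those of Foxa3 and of Hhex. Foxa3 exceeded Prox1 in 6 of 7 libraries, Prox1 exceeded Hhex in 5 of 7, and Foxa3 exceeded Hhex in every library. Hhex exceeded Foxa2 in all 7 libraries. Foxa2, Nr5a2, Foxa1 and Onecut2 formed the low end, from 1.24 to 1.76 CPM per kilobase in the knockout and from 1.03 to 1.51 in the wild type, where Foxa2 exceeded Nr5a2 in 4 of 7 libraries and Foxa1 exceeded Onecut2 in 3 of 7. Among 16075 genes with a length, Hnf4a stood at percentile 72.3 of this measure, Cebpa at 59.7, Foxa3 at 49.7 and Onecut2 at 27.5.

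**Figure D2:**
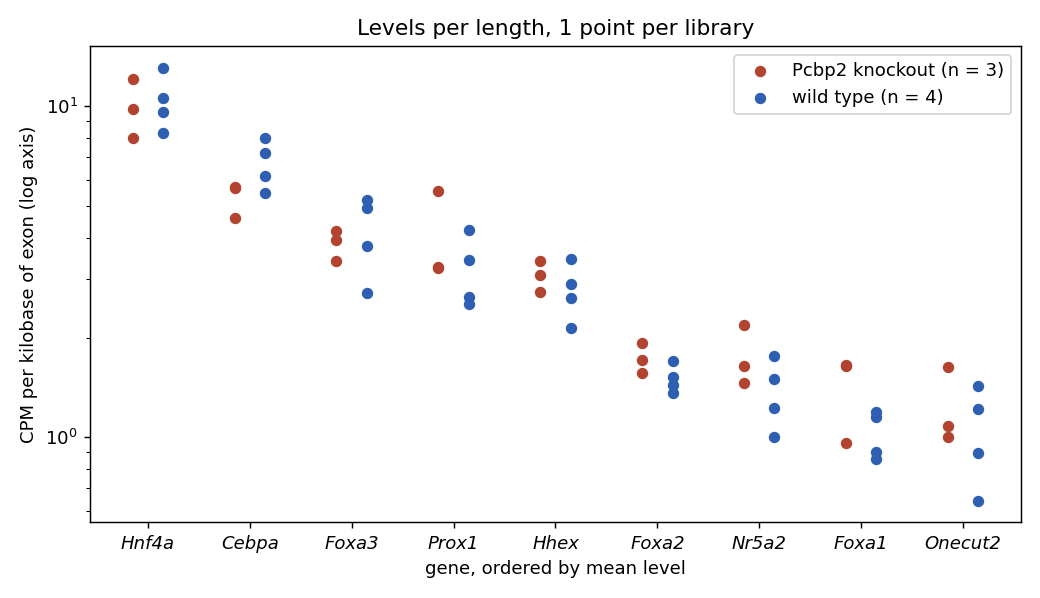
Level per length of the 9 genes, in CPM per kilobase of exon on a log axis, with 1 point per library and knockout left of wild type for each gene. Hnf4a lies above all the others in every library, and the 4 genes on the right share one range.

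Part of the variation among the 9 genes was shared within each genotype. Knockout library 5 was the lowest knockout library for all 9, wild-type library 2 was the lowest wild-type library for 6 and wild-type library 3 the highest for 5. With each gene centred on its own mean over the 7 libraries, the median of the 9 in log2 units was 0.26, 0.09 and -0.11 in knockout libraries 3, 4 and 5, against -0.00, -0.37, 0.23 and -0.12 in wild-type libraries 1 to 4. The median of 14 hepatoblast markers, such as Afp, Alb and the fibrinogen genes, was 0.12, -0.03 and -0.17 in the knockout and 0.15, -0.44, 0.42 and -0.02 in the wild-type libraries. By these medians, wild-type library 2 was lowest and wild-type library 3 was highest within their genotype in both sets. Not every marker followed its median. Dlk1 was at 0.20 in wild-type library 2, and Cdh1, Krt18 and Krt8 were at -0.18, -0.22 and -0.16 in wild-type library 3. Of the 14 markers 1 passed, Ahsg, the gene of the plasma protein fetuin-A. It fell to 52.3, 40.1 and 44.2 CPM in the knockout libraries, against 110, 63.6, 146 and 95.1 CPM in the wild-type libraries (log2 fold change -1.18 ± 0.23, SE; edgeR adjusted p = 0.0213, but 0.0738 without knockout library 4 and 0.0998 without knockout library 5).

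**Figure D3:**
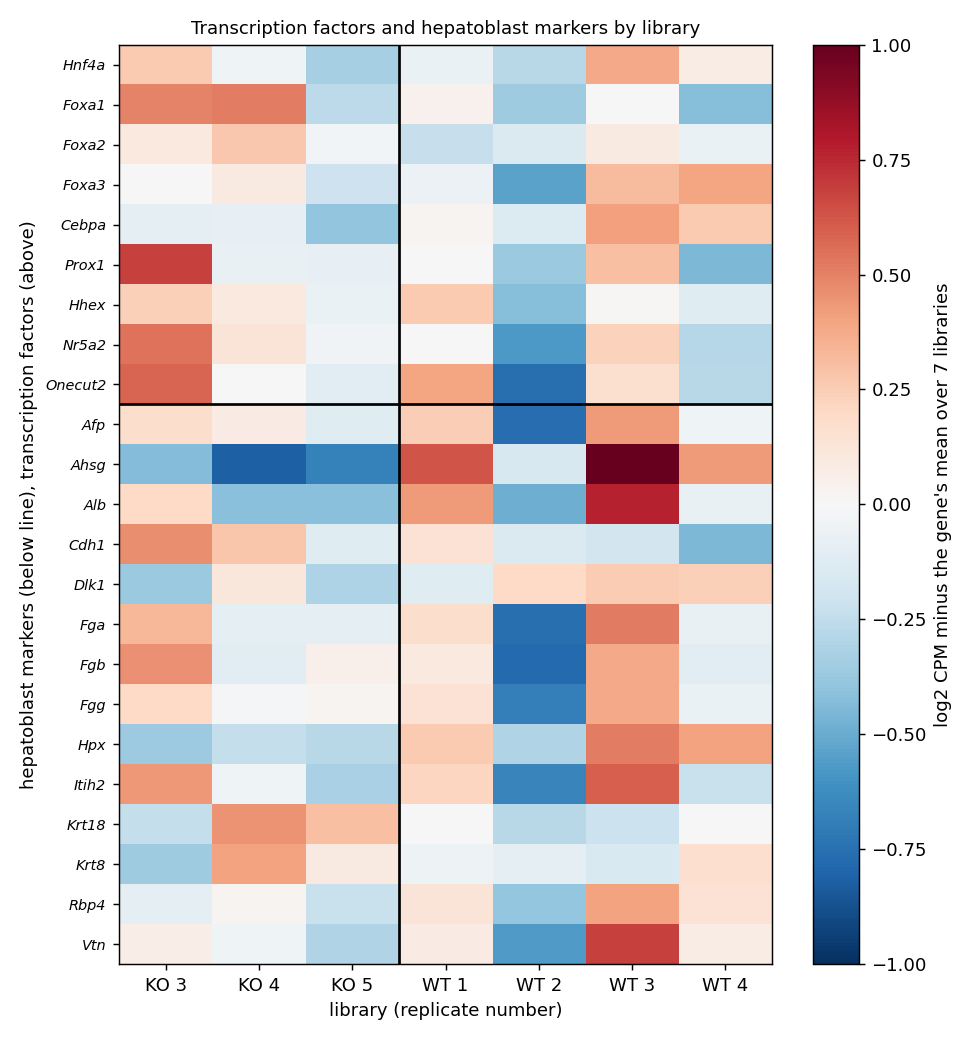
Log2 CPM minus the mean of each gene over the 7 libraries, for the 9 transcription factors above the line and 14 hepatoblast markers below it, with the 3 knockout libraries left of the 4 wild-type libraries. Most genes are low in wild-type library 2, whereas the dark cells of Ahsg separate the genotypes; its value of 1.04 in wild-type library 3 lies just past the end of the colour scale.

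Scaling the libraries by the 14 hepatoblast markers in place of TMM gives levels relative to these markers. They include Ahsg, which passed, and Afp and Alb, which are also listed further on as targets of these factors. The scale is therefore not free of the factors' own targets, and whether it follows the number of hepatoblasts was not tested. The scaling factor relative to TMM was 1.09, 0.980 and 0.886 in knockout libraries 3, 4 and 5 and 1.10, 0.737, 1.33 and 0.981 in wild-type libraries 1 to 4. The median SD of the 9 genes on the log2 scale became 0.16 in the knockout, against 0.29 under TMM, and 0.22 in the wild type, against 0.29 under TMM. It was smaller for 8 of the 9 genes in the knockout and for 7 in the wild type. Hhex then had 15.8, 15.9 and 15.6 CPM in the 3 knockout libraries. None of the 9 passed the test on this scale, where log2 fold changes ran from -0.29 to 0.50. Groups did not overlap for 1 of the 9, Nr5a2, against 7.34% of all genes. Nr5a2 had 11.9, 9.89 and 9.72 CPM in the knockout libraries, against 8.004, 8.02, 7.795 and 7.39 CPM in the wild-type libraries. Its log2 fold change on this scale was 0.43, with an edgeR adjusted p of 0.889.

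Ratios between 2 of the genes in the same library need no scaling. Of the 36 pairs, 6 had ratios that did not overlap between the groups, against 21.3% of all pairs of tested genes with a read in every library, and 5 of these involved Cebpa. The ratio of Hnf4a to Cebpa was 3.91, 3.15 and 3.20 in knockout libraries 3, 4 and 5, against 2.86, 2.78, 3.00 and 2.68 in wild-type libraries 1 to 4. Foxa2 over Cebpa was 0.272, 0.305 and 0.307 in the knockout and 0.198, 0.237, 0.191 and 0.189 in the wild type. Cebpa over Nr5a2 was 1.152, 1.547 and 1.404 in the knockout and 1.84, 2.44, 2.03 and 2.63 in the wild type. The ratios of Cebpa to Foxa3, Hhex and Onecut2 overlapped between the groups. The pairs share genes and those shown were singled out by their values, and with the share of separated pairs below that of all gene pairs they are given as a description only.

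For each of the 9, the tested genes with the most similar pattern were found by the root mean square difference of centred log2 CPM over the 7 libraries, among at least 10829 named genes with a mean of 5 CPM or more. Hnf4a lay closest to Lcat, a plasma enzyme of cholesterol transport made by the liver (0.0753), and Prkcq (0.0996), and its nearest neighbour within the group was Cebpa (0.167). Foxa3 lay closest to Hoga1 (0.0702) and Ambp (0.0736), the gene of a liver plasma protein. Prox1 and Nr5a2 shared Ly75 among their nearest genes (0.0781 for Prox1 and 0.105 for Nr5a2) and were each other's nearest within the group (0.140). Onecut2 lay closest to Krt20 (0.0908) and Btaf1 (0.109), Cebpa to Suv420h2 (0.0555) and Ptpn7 (0.0609), and Hhex to Dnajc21 (0.0570) and Mtif2 (0.0583). Foxa2 had the nearest matches, Stat5b (0.0298) and Cntrob (0.0368), and Foxa1 the most distant, Cpm (0.126) and Ide (0.147). Genes with a small spread of their own, such as Foxa2, give small differences by construction.

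The wider set of liver transcription factors contained genes that passed in edgeR. Of 24 listed, 23 were tested, 2 rose and 2 fell, and the median log2 fold change was -0.04. Over all genes tested, 1.59% rose and 3.43% fell. Nr2f1, the nuclear receptor COUP-TF1, rose to 33.4, 42.5 and 35.2 CPM in the knockout libraries, against 12.6, 22.1, 15.02 and 15.6 CPM in the wild-type libraries (log2 fold change 1.18 ± 0.18, SE; edgeR adjusted p = 0.00717). It passed under all 16 alternatives, with an adjusted p of at most 0.0397. Nr1h4, the bile acid receptor FXR, fell to 4.17, 3.38 and 2.17 CPM in the knockout libraries, against 7.58, 6.66, 5.99 and 7.57 CPM in the wild-type libraries (log2 fold change -1.10 ± 0.22, SE; edgeR adjusted p = 0.0234). Nr1h3, the oxysterol receptor LXRalpha of hepatocytes and macrophages, fell to 4.66, 4.28 and 3.62 CPM in the knockout, against 9.04, 5.81, 7.20 and 8.69 CPM in the wild type (-0.87 ± 0.19, SE; edgeR adjusted p = 0.0315). Tbx3, a T-box gene that sustains hepatoblast growth and is also expressed in other tissues, rose to 24.7, 34.1 and 32.2 CPM in the knockout, against 16.2, 24.5, 19.1 and 16.6 CPM in the wild type (0.67 ± 0.17, SE; edgeR adjusted p = 0.0488). Groups did not overlap for 5 of the 23 tested, these 4 among them, against 20.6% of all genes. The remaining gene was Nr2f2, with 172, 148 and 173 CPM in knockout and 123, 144, 125 and 129 CPM in wild-type libraries (edgeR adjusted p = 0.0749). The calls of Nr1h4, Nr1h3 and Tbx3 depended on the libraries used. Without wild-type library 1, wild-type library 4, knockout library 4 or knockout library 5, the edgeR adjusted p of Nr1h4 was 0.0530 to 0.0876, that of Nr1h3 0.0684 to 0.147 and that of Tbx3 0.101 to 0.180. Without wild-type library 3 Nr1h3 had an edgeR adjusted p of 0.0670 and Tbx3 one of 0.108. Under scaling by hepatoblast markers the edgeR adjusted p was 0.102 for Nr1h4, 0.298 for Nr1h3 and 0.386 for Tbx3. Their log2 fold changes on that scale were -1.11, -0.83 and 0.66. Of the markers of other cells that Nr1h3, Nr2f1 and Tbx3 could share, 3 of 8 myeloid genes fell, with sums that overlapped between the groups, and 3 of 10 endothelial genes rose. In the further lists, 2 of 8 heart muscle genes rose in edgeR and 0 in limma-voom. In edgeR 1 of 6 stellate genes fell and 0 of 5 mesothelial genes passed. The endothelial gene with the smallest p was Emcn, with 15.6, 13.3 and 13.6 CPM in knockout and 5.99, 8.66, 7.14 and 6.60 CPM in wild-type libraries (edgeR adjusted p = 0.00676, but 0.0856 under scaling by hepatoblast markers). The part of these cells in the 4 changes was not tested.

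Partners of the 9 factors were also measured. Onecut1, the partner of Onecut2, had a log2 fold change of 0.41 ± 0.28 (SE; edgeR adjusted p = 0.426), with 2.90, 1.54 and 1.54 CPM in knockout and 1.59, 1.39, 1.51 and 1.49 CPM in wild-type libraries. As for Prox1, the high library was knockout library 3. Of 12 genes for cofactors and chromatin partners 0 passed with edgeR, limma-voom or DESeq2, 1 had an unadjusted p under 0.05 in edgeR, and their median was 0.08. Among them Smarca4, the ATPase of the SWI/SNF remodelling complex, had the smallest p, with 277, 283 and 269 CPM in knockout and 192, 250, 246 and 240 CPM in wild-type libraries (log2 fold change 0.25 ± 0.11, SE; edgeR adjusted p = 0.212). Of 8 biliary genes 0 passed in edgeR, 2 had an unadjusted p under 0.05 and 1 rose with DESeq2. Their log2 fold changes were positive for 5 and negative for 3. They summed to 211 to 261 CPM in knockout and 179 to 265 CPM in wild-type libraries. Sox9, the early bile duct gene, had 16.2, 14.7 and 15.3 CPM in knockout and 7.18, 13.7, 7.69 and 8.44 CPM in wild-type libraries, with a log2 fold change of 0.74 ± 0.21 (SE; edgeR adjusted p = 0.0720). Gut and pancreas markers summed to 11.6 to 35.7 CPM in the knockout and 16.4 to 32.4 CPM in the wild type. Of these, 0 of the 5 tested passed with edgeR, limma-voom or DESeq2, with 1 at an unadjusted p under 0.05 in edgeR.

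**Figure D4:**
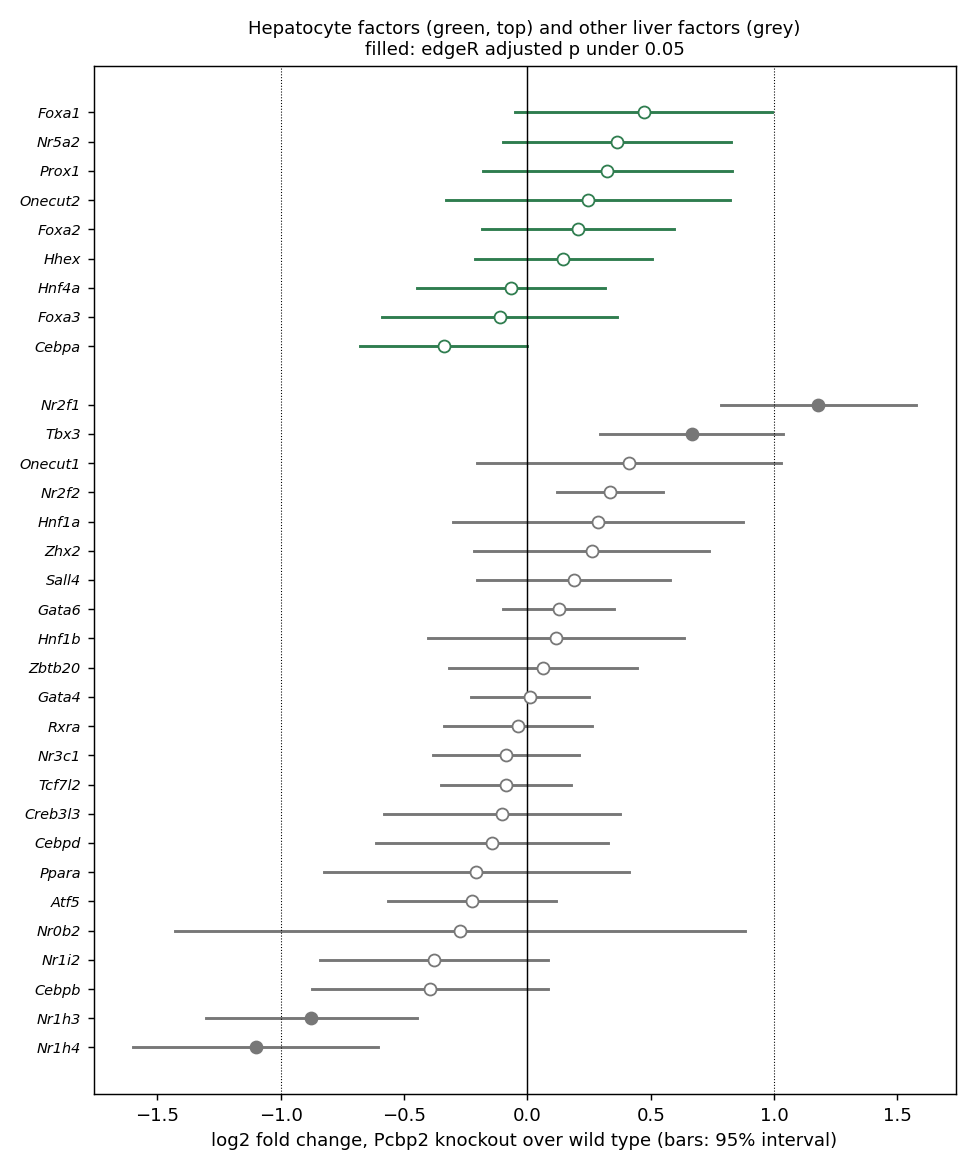
Log2 fold change, knockout over wild type, with its 95% interval for the 9 hepatocyte factors (green, top) and 23 other liver transcription factors (grey, below). Filled points passed at an edgeR adjusted p of 0.05; all 9 green points are open and their intervals stay between the dotted lines at 2-fold, whereas Nr2f1 and Tbx3 to the right and Nr1h3 and Nr1h4 to the left are filled.

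Known target genes of the factors were read from the same comparison. Of 19 targets of HNF4A, 16 were tested and 0 passed in edgeR, with 3 at an unadjusted p under 0.05, while 14 of the 16 log2 fold changes were negative and their median was -0.27. With limma-voom 0 passed and with DESeq2 2 of the 19 fell; without wild-type library 2, the wild-type library lowest in hepatoblast markers, 4 fell in edgeR and the median was -0.47. Without wild-type library 3, the highest in those markers, 0 passed and the median was -0.13, and it was -0.14 under scaling by total counts. Those with the smallest p were Pklr, liver and red cell pyruvate kinase, and Apoa1, the main HDL apolipoprotein. Apoa1 had 220, 238 and 223 CPM in knockout libraries, against 312, 244, 411 and 415 CPM in wild-type libraries (log2 fold change -0.61 ± 0.17, SE; edgeR adjusted p = 0.0756), and the groups did not overlap. Pklr had 203, 167 and 151 CPM in knockout and 327, 189, 386 and 281 CPM in wild-type libraries (-0.77 ± 0.21, SE; edgeR adjusted p = 0.0663), and is also expressed in the erythroid cells whose markers fell. Otc and Apoa2 followed, with log2 fold changes of -0.54 and -0.34 and edgeR adjusted p of 0.229 and 0.250.

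Of 6 liver targets of C/EBPalpha 3 were tested and 0 passed in edgeR, with 1 at an unadjusted p under 0.05, while with DESeq2 1 fell. Gys2, liver glycogen synthase, had 17.2, 17.2 and 16.1 CPM in knockout and 26.8, 18.7, 28.2 and 20.9 CPM in wild-type libraries (log2 fold change -0.49 ± 0.15, SE; edgeR adjusted p = 0.0961). Of the 6 myeloid targets of C/EBPalpha 0 passed with edgeR, limma-voom or DESeq2, and 0 had an unadjusted p under 0.05 in edgeR. Csf3r, the G-CSF receptor, had 4.11, 4.48 and 3.17 CPM in knockout and 5.11, 4.71, 4.54 and 5.80 CPM in wild-type libraries (-0.36 ± 0.18, SE; edgeR adjusted p = 0.285). Of 8 FOXA targets 5 were tested in edgeR; 0 passed with edgeR, limma-voom or DESeq2, and 1 had an unadjusted p under 0.05 in edgeR, with a median of 0.02. The one with the smallest p was Igfbp1, a secreted binding protein of insulin-like growth factors, at 17.3, 40.7 and 24.1 CPM in knockout and 15.9, 10.7, 22.1 and 16.1 CPM in wild-type libraries (0.76 ± 0.29, SE; edgeR adjusted p = 0.157). Of 8 NR5A2 targets 7 were tested and 0 passed in edgeR, with 1 at an unadjusted p under 0.05 and a median of -0.17, while with DESeq2 1 fell. Scarb1, the HDL receptor, was nearly level at 62.6, 67.8 and 55.8 CPM in knockout and 58.3, 61.4, 70.2 and 71.4 CPM in wild-type libraries.

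Genes of the late gestation and newborn liver gave too few reads to test. G6pc, the last enzyme of gluconeogenesis, had 0 reads in the 3 knockout libraries and in 3 of the wild-type libraries, and 1 read in wild-type library 1. Pck1 had 3 to 6 reads in the knockout libraries and 2 to 5 in the wild-type libraries, and Tat, tyrosine aminotransferase, had 0 to 5 reads in each genotype. These later targets of the 9 factors were therefore not comparable between the genotypes at this depth.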

How the data were processed

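Total RNA had been made into stranded mRNA libraries, per the labels. Each library has a deposited file of raw counts, reads per gene. The submitters' processing notes name cutadapt 1.4.2, TopHat2, HTSeq, DESeq2, DESeq and the build mm10; settings, annotation release and strand mode of counting: not given in the sources used here. Reads of antisense pairs may therefore be mixed. The authors' deposited comparison table gives a mean normalized count (a signal), a log2 fold change with its SE, a Wald statistic (a score) and p-values, plain and adjusted.

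Identifiers were named from that table (15548) or from GENCODE M21 (22194); 1182 had no name. Exon lengths, positions and neighbours came from GENCODE M21, promoters from RefSeq. Counts were tested in R 4.3.3 with edgeR 4.0.16 (filterByExpr, TMM, quasi-likelihood, no covariates, Benjamini-Hochberg over all 16226 genes tested); limma 3.58.1, DESeq2 1.42.0, other scalings, filters and leaving out each library were alternatives. HTSeq's summary lines were left out of the tests. Of reads in genes and all summary lines together, 11.3% to 14.7% in the knockout had no unique alignment. In the wild type the share was 15.2% to 19.6%. The code was tested on simulated data. Floors cover counting error only.

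The 9 genes and all lists were chosen with earlier results of these data known. Named beyond the 9 were Pcbp2, any other liver transcription factor or cofactor that passed, up to 4 genes of smallest p per other list, overlapping genes and the 2 nearest genes by pattern; Onecut1, Spi1, Emcn, Scarb1, 9030622O22Rik, G6pc, Pck1 and Tat were picked with values in view, within or beside that rule. Target and marker lists share members.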

Additional observations from a re-analysis of the deposited data

Results flagged for a closer look

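Among 73 genes examined, the 9 factors included, 9 had 1 wild-type library far from the other 3; chance marks about 1 in 20 such groups, and none of the 9 factors was among them. In wild-type library 2, 3 adrenal genes stood high: Star at 6.13 CPM, against 0.690 to 0.985 CPM in the other wild-type libraries, Dbh at 7.10 CPM, against 0.192 to 0.575 CPM, and Th at 3.66 CPM, against 0.0821 to 0.372 CPM. Star has roles in steroid synthesis, and Dbh and Th in catecholamine synthesis. The steroid factor Nr5a1, a relative of Nr5a2, had 148 reads in that library, against 1 to 3 reads in each of the other 6, while Nr5a2 itself was lowest there, at 5.91 CPM. The same library was high for Sox4, at 130 CPM against 93.5 to 99.6 CPM, and for Csf1r, at 88.2 CPM against 68.6 to 71.9 CPM.

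In wild-type library 1, Dlk1 was low at 699.9 CPM, against 871 to 906 CPM in the other wild-type libraries, and Pcbp2 at 165 CPM, against 329 to 347 CPM. The heart muscle gene Myh6 was 0.782 CPM in wild-type library 4, against 0.220 to 0.305 CPM, and Tnnt2 was 5.83 CPM in wild-type library 3, against 8.29 to 8.53 CPM.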

How the results depend on the processing

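Counts of genes passing depended on the settings. Over all tested genes 814 passed, and 285 with scaling by hepatoblast markers, 2056 with the replicate block, 1673 with DESeq2 and 140 to 1171 with 1 library left out; the lowest was without knockout library 5, the highest without wild-type library 2. Scaling by total counts turned the split of 258 higher and 556 lower into 651 and 393 and moved the all-gene median, in log2 units, to 0.14, the shift against which directions near 0 are to be read. Of the 9 hepatocyte factors 0 passed, and 1 with the replicate block, Prox1 (log2 0.38, edgeR adjusted p = 0.0416), with 4 of 9 at an unadjusted p under 0.05. The numbers shared by the groups, 3 and 4, gave correlations of deviations of 0.43 and 0.35 over 13845 genes. Pairs of unlike number ran from -0.45 to 0.21. Deviations were taken from the mean of each genotype, which ties the correlations to one another. The shared numbers are only 2 pairs, and the labels do not say that a number pairs samples. Hnf4a turned to 0.062 and Foxa3 to 0.0176 under total counts; with 1 library left out Hnf4a ranged from -0.22 to 0.0701 and Foxa3 from -0.28 to 0.0151. The replicate block also gave 8 HNF4A targets that fell, against 0. The other 7 factors kept their sign in every setting, although Prox1 (0.02) and Onecut2 (0.00) were at the edge without knockout library 3. Foxa1 and Foxa2 were not tested at 5 CPM in 3 libraries. The causes were not tested.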
